A study of Ovis aries with 16 samples.

Results

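Genes of the NF-kappaB pathway and of inflammatory cytokine signalling were followed in fat of adult female sheep, some of which had been exposed to bisphenol A (BPA) before birth. The set holds 10 genes taken by symbol, all of them present among the 28524 genes of the deposited count table: the inhibitor NFKBIA, the subunits NFKB1 and RELA, the feedback enzyme TNFAIP3, the cytokines TNF, IL6 and IL1B, the receptors TLR2 and TLR4, and the cytokine signalling suppressor SOCS3. BPA is a plastics chemical with weak oestrogen-like activity. Each BPA animal came from a mother injected under the skin every day from gestation day 30 to day 90 (of a term near day 147) with 0.5 mg/kg BPA in corn oil, and each control animal from a mother injected with corn oil alone. The daughters were sampled at about 21 months of age, 24 hours after a second prostaglandin F2-alpha injection, given to controls as well so that all were in the follicular phase. They had been kept on a maintenance diet that limits weight gain. Visceral fat was mesenteric fat beside the rumen (its ventral sac), and subcutaneous fat was taken over the sternum. RNA sequencing after ribosomal RNA depletion gave 16 libraries, 4 in each of 4 groups: visceral control (animals 902, 908, 924 and 928), visceral BPA (910, 918, 977 and 984), subcutaneous control (902, 924, 928 and 931) and subcutaneous BPA (918, 922, 941 and 977). Values below follow this order of animals.

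In resting cells NF-kappaB dimers, such as the p50 product of NFKB1 with RELA (p65), are held in the cytoplasm by inhibitors of the IkappaB family, of which NFKBIA (IkappaB-alpha) is the best known. TNF, IL1B or microbial ligands of Toll-like receptors such as TLR2 and TLR4 activate a kinase complex that marks the inhibitor for destruction, and the freed dimers switch on cytokine genes together with their own brakes, NFKBIA and TNFAIP3 (A20). SOCS3 is induced through STAT3 by cytokines of the IL6 type and by leptin, and it blocks their receptors. In fat, macrophages supply much of the TNF and IL1B, whereas adipocytes and stromal cells also carry TLR4 and the NF-kappaB machinery.

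Library totals ran from 6768945 to 14305764 counts in visceral fat and from 3046126 to 6223460 in subcutaneous fat. All 8 adipocyte markers were detected in every library. Whole fat was sequenced, so fewer cells of a type and less RNA per cell cannot be told apart. Visceral BPA 977 stood apart with the lowest visceral total, the highest visceral share of counts in genes under 200 bases (1.13%, against 0.253% to 0.681% in the other 7) and the highest visceral lymphocyte and mesothelial marker sums (198 and 283 CPM, counts scaled to each library's total). Subcutaneous controls 902 and 924 held the highest lymphocyte marker sums of that depot (191 and 243 CPM, against 44.3 to 106 in the other 6). Results that move with these libraries are given without them as well. The lymphocyte list includes PTPRC, which all leukocytes carry. It had 10903 counts over 16 libraries, against at most 547 for any other marker of that list. The lymphocyte sums therefore mostly follow PTPRC and are not a measure of lymphocytes alone. In subcutaneous fat the share of counts in genes under 200 bases was 0.676% to 1.33% in the 4 BPA libraries and 0.355% to 0.459% in the 4 controls, without overlap, and BPA totals (3046126 to 4828287) were mostly below control totals (4738482 to 6223460). The number that opens each library's title was taken as its animal, which the labels do not state, and p-values measure the spread between these samples.

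The NF-kappaB machinery was expressed well in all 16 libraries, and the cytokines were close to the counting limit. On a scale that corrects for gene length (TPM, which divides counts by length before scaling), NFKBIA had the highest median over the 16 libraries, at 156, followed by RELA at 61.6 and NFKB1 at 29.4. TNFAIP3 (16.8), TLR4 (14.3) and SOCS3 (11.4) formed the middle of the order, and TLR2 had a median of 5.70. The lowest NFKBIA value (109.6) was above the highest of RELA (83.3), whereas the range of RELA (42.4 to 83.3) just met that of NFKB1 (19.8 to 45.3). The ranges of TNFAIP3 (12.6 to 38 TPM), TLR4 (11 to 20.8) and SOCS3 (4.95 to 27.5) overlapped, so these neighbours could not be ranked. Within a gene, the highest library exceeded the lowest by 5.63 times in SOCS3 and 5.45 times in TLR2, by 2.37 and 2.33 times in TNFAIP3 and NFKBIA, and by 1.66 to 1.86 times in TLR4, RELA and NFKB1.

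TNF, a cytokine that activates this pathway, was read 0 to 18 times per library. Visceral controls had 18, 11, 9 and 7 TNF counts and visceral BPA libraries 12, 10, 0 and 3. Subcutaneous controls had 5, 2, 1 and 1 TNF counts and subcutaneous BPA libraries 2, 1, 1 and 2. Pooled over the 4 libraries of a group, TNF stood at 0.942 (0.687 to 1.26) CPM in visceral controls, 0.629 (0.407 to 0.929) in visceral BPA, 0.401 (0.184 to 0.762) in subcutaneous controls and 0.363 (0.133 to 0.790) in subcutaneous BPA libraries (exact 95% Poisson intervals, which cover counting error only). The intervals of visceral control and visceral BPA overlapped, as did those of both subcutaneous groups. IL6 was read 14 times in all, with 0 counts in 8 of 16 libraries, and its group sums were 5, 3, 4 and 2 in the order given above. IL1B was read 21 times, with 0 counts in 7 libraries and group sums of 13, 4, 3 and 1, and 8 of the 13 visceral control counts came from animal 928. A count of 0 allows a level of up to 0.226 to 0.881 CPM, depending on the library, so differences in IL6 and IL1B below that level were not detectable at this depth. TNF passed the filter on low counts only in the visceral comparison of BPA with control, where its log2 fold change was -0.54 ± 0.80 (adjusted p = 0.847). It was -0.19 without visceral BPA 977 and between -1.10 and -0.19 with any single library left out. IL6 and IL1B passed the filter in none.

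**Figure D1:**
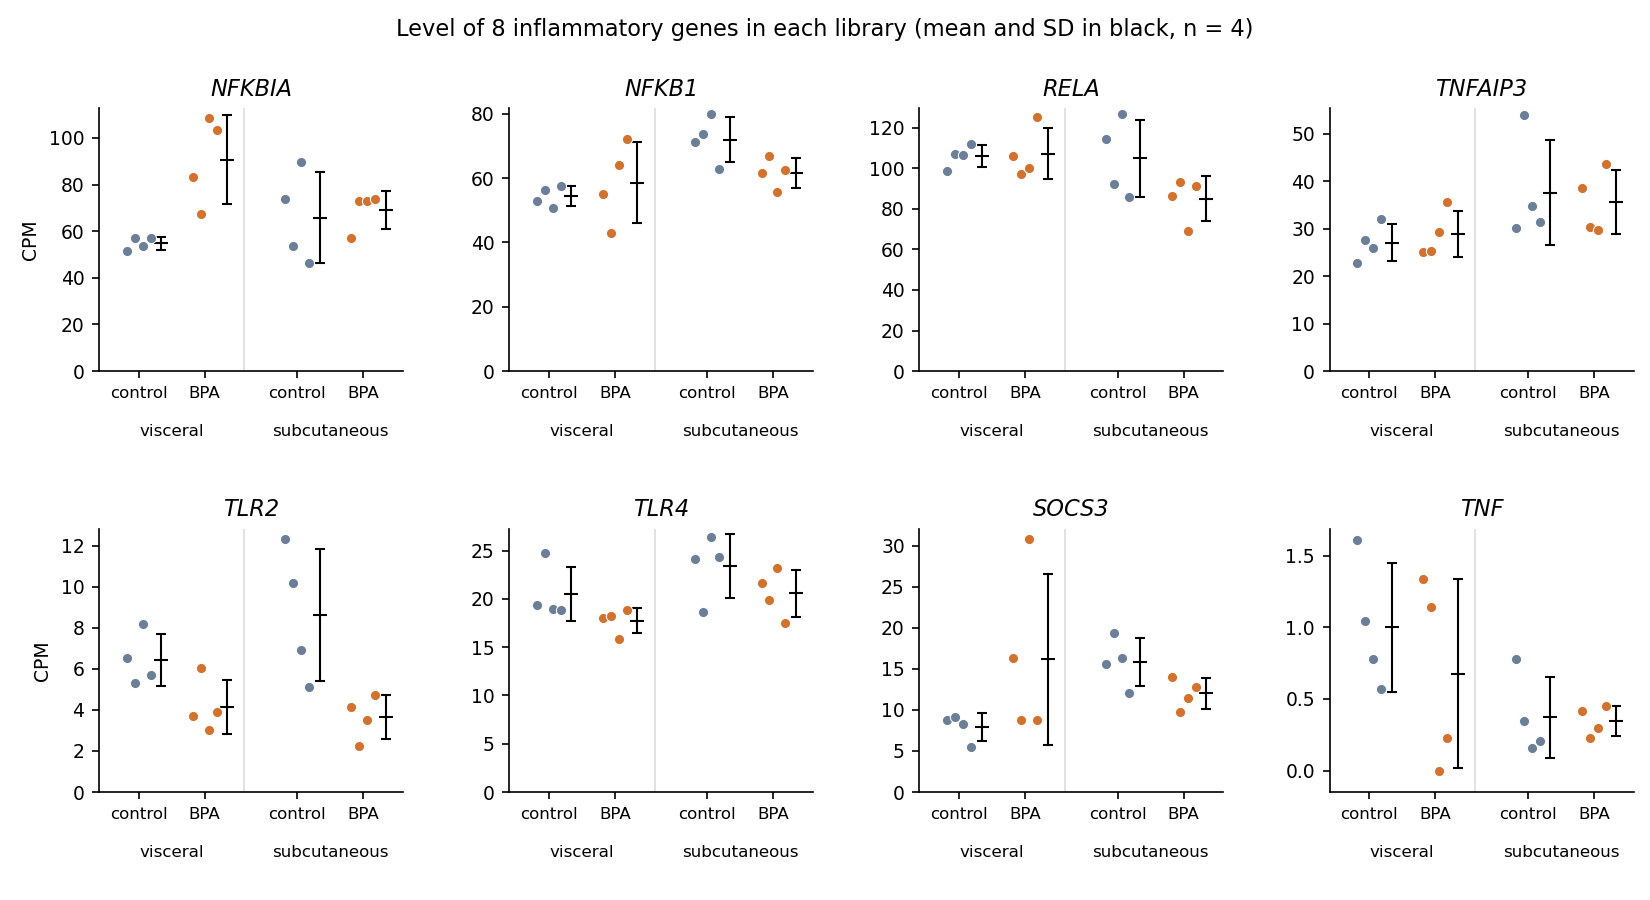
Level of 8 of the genes in each library, in CPM scaled over all 16 libraries (vertical axes, linear), by group (horizontal axes), with the mean and SD of 4 libraries in black. All 4 visceral BPA libraries lie above the visceral controls in NFKBIA, all 4 subcutaneous BPA libraries lie below the subcutaneous controls in TLR2, and SOCS3 is lower in visceral than in subcutaneous controls.

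Fat of BPA daughters was first compared with control fat within the visceral depot. With edgeR's quasi-likelihood test and Benjamini-Hochberg adjustment over 14774 genes, 0 of the 8 tested genes of the set passed an adjusted p of 0.05, and the share over all genes was 0% as well. At an unadjusted p under 0.05 there were 2, NFKBIA and SOCS3, beside 1103 of all genes, and DESeq2 and limma voom also called 0 of the set. The log2 fold changes of the 8 genes had a median of 0.06, against 0.00 over all genes.

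NFKBIA showed the most even separation of the set. Visceral controls stood at 51.7, 57.2, 53.5 and 56.9 CPM and visceral BPA libraries at 83.1, 67.2, 109 and 103. Every BPA library was above every control, a separation seen in 4.07% of all genes tested (2.36% with BPA higher, 1.71% with BPA lower), and the controls lay closer to one another than the BPA libraries, of which 918 was lowest. The means were 54.8 ± 2.72 and 90.6 ± 19.1 CPM (SD, n = 4), a log2 fold change of 0.73 ± 0.17 (95% interval 0.35 to 1.11; 1.66-fold), with an unadjusted p of 0.0015 that ranked 13 among all genes and an adjusted p of 0.658. It lay between 0.62, without BPA 977, and 0.85 when single libraries were left out, and DESeq2 gave an adjusted p of 0.0890. In subcutaneous fat NFKBIA was 73.9, 53.5, 89.5 and 46.5 CPM in controls and 57.2, 73, 72.8 and 73.7 in BPA libraries. All 4 BPA libraries lay between controls 924 and 931 on the low side and controls 902 and 928 on the high side, and the log2 fold change was 0.07 ± 0.20 (interval -0.37 to 0.52; adjusted p = 0.905).

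The subunits that NFKBIA binds did not separate in visceral fat. NFKB1 was 52.7, 56.4, 50.7 and 57.5 CPM in controls and 54.9, 42.9, 64.1 and 72.2 in BPA libraries, and RELA was 98.6, 107, 106 and 112 and 106, 97.3, 100.2 and 125. In both genes the control values fell inside the wider BPA range, with library 918 at its low end and 984 at the top. The log2 fold changes were 0.11 ± 0.18 for NFKB1 (interval -0.28 to 0.50; adjusted p = 0.858) and 0.02 ± 0.14 for RELA (-0.28 to 0.32; 0.968). TNFAIP3, the deubiquitinating enzyme that shuts NF-kappaB signalling off and, like NFKBIA, is a target of it, was 22.8, 27.5, 25.8 and 32.1 CPM in controls and 25.1, 25.3, 29.3 and 35.5 in BPA libraries, with overlapping ranges and a log2 fold change of 0.09 ± 0.18 (interval -0.31 to 0.50; adjusted p = 0.880).

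Because NFKBIA and its subunits tended to be high in the same libraries, their counts were also divided by one another within each library, which removes any scaling between libraries. These ratios were chosen after the values had been seen. In visceral controls the ratio of NFKBIA to RELA counts was 0.524, 0.535, 0.503 and 0.509, and in visceral BPA libraries 0.784, 0.691, 1.08 and 0.825. The ratio of NFKBIA to NFKB1 was 0.980, 1.02, 1.05 and 0.990 in controls and 1.51, 1.57, 1.70 and 1.43 in BPA libraries. Neither ratio overlapped between the groups, with means of 0.518 ± 0.0146 and 0.846 ± 0.168 for RELA and 1.01 ± 0.0333 and 1.55 ± 0.111 for NFKB1 (SD, n = 4). The subunits had been seen not to separate in visceral fat (log2 fold changes of 0.02 for RELA and 0.11 for NFKB1). Both ratios therefore largely repeat the NFKBIA separation and are not separate support for it. The exact two-sided permutation test gave p = 0.0286 for both, the smallest value that 4 against 4 libraries allow. Any 2 groups of 4 without overlap get this value. It was 0.125 after Benjamini-Hochberg adjustment over the 48 ratios computed. Of those 48, 11 did not overlap between groups and 0 passed the adjustment. In subcutaneous fat the NFKBIA to RELA ratio was 0.647, 0.581, 0.705 and 0.540 in controls and 0.661, 0.782, 1.06 and 0.810 in BPA libraries (exact permutation p = 0.0571), and the ranges overlapped. NFKBIA is a short gene of 1126 bases beside 4164 for RELA and 5247 for NFKB1, and genes of 1000 to under 2000 bases had a median log2 fold change of -0.02 in the visceral comparison.

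**Figure D2:**
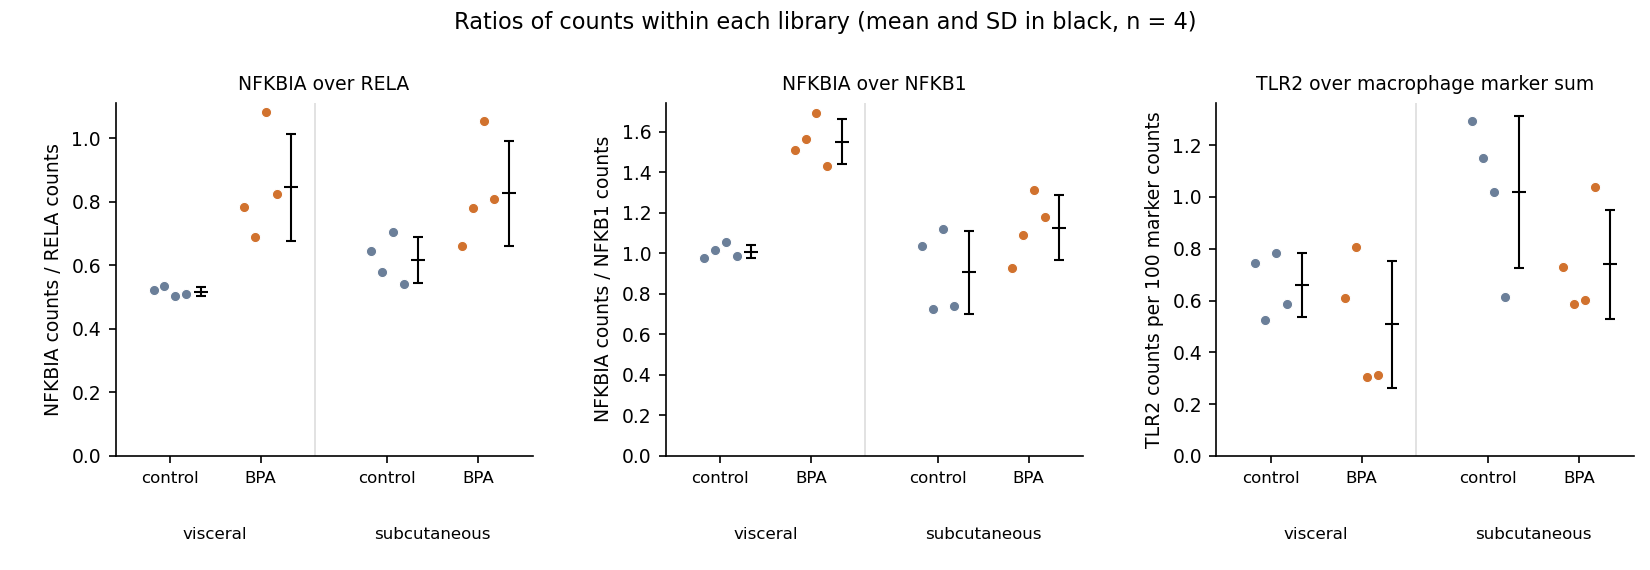
Ratios of counts within each library (vertical axes, no unit, or per 100 counts of macrophage markers where stated) by group, with the mean and SD of 4 libraries in black. The NFKBIA ratios of the 4 visceral BPA libraries lie above those of the visceral controls (0.691 or more against 0.535 or less for RELA), and the TLR2 ratios to macrophage markers overlap between groups.

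In subcutaneous fat, 0 of the 7 tested genes passed the edgeR test, against 0.709% of 13535 genes. At an unadjusted p under 0.05 there was 1 (TLR2), beside 1926 of all genes. DESeq2 called 1, also TLR2, beside 464 of all genes, and limma voom 0, beside 1. The estimates of 6 of the 7 were below 0, with a median of -0.22 against -0.01 over all genes. RELA was 114, 92.1, 127 and 86.1 CPM in controls and 86.5, 93.3, 69 and 91 in BPA libraries, and NFKB1 was 71.1, 73.7, 79.9 and 62.9 and 61.7, 66.9, 55.5 and 62.5. For both subunits controls 902 and 928 lay above all BPA libraries and control 931 lay among them. The log2 fold changes were -0.30 ± 0.16 for RELA (adjusted p = 0.421) and -0.22 ± 0.13 for NFKB1 (0.466). TNFAIP3 was 30.1, 53.8, 34.7 and 31.4 CPM in controls, where animal 924 alone reached 53.8, and 38.6, 30.3, 29.7 and 43.6 in BPA libraries, and its log2 fold change of -0.07 ± 0.21 (adjusted p = 0.908) became 0.16 without that control. SOCS3 was 15.6, 19.3, 16.3 and 12.1 CPM in controls and 14, 9.72, 11.5 and 12.8 in BPA libraries (log2 fold change -0.40 ± 0.21, adjusted p = 0.419).

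TLR2, the receptor for bacterial lipoproteins that pairs with TLR1 or TLR6, had the largest subcutaneous difference of the set. Controls stood at 12.3, 10.2, 6.91 and 5.12 CPM and BPA libraries at 4.13, 2.26, 3.52 and 4.72. All 4 BPA libraries lay below all 4 controls, as in 3.24% of the genes tested in that direction (7.4% in either), with control 931 just above BPA 977. The means were 8.63 ± 3.23 and 3.66 ± 1.05 CPM, a log2 fold change of -1.23 ± 0.35 (95% interval -2.01 to -0.46; 2.35-fold lower), with an edgeR adjusted p of 0.155 and a DESeq2 adjusted p of 0.0490. Without controls 902 and 924 the log2 fold change was -0.71 (adjusted p = 0.517). Without genes under 200 bases, whose share was higher in all 4 BPA libraries, it was -1.22 (adjusted p = 0.219). TLR2 counts were 25 to 79 per control library and 10 to 21 per BPA library. In visceral fat TLR2 was 6.51, 5.31, 8.21 and 5.70 CPM in controls and 3.69, 6.05, 3.0 and 3.92 in BPA libraries, where 918 lay inside the control range and the other 3 below it (log2 fold change -0.62 ± 0.31; adjusted p = 0.658).

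The summed level of macrophage markers was also lower in every subcutaneous BPA library than in every control. Of 13 markers tested, 13 had lower estimates in BPA libraries, with a median log2 fold change of -0.96. The 1 that passed was TYROBP, where 0.709% of all genes passed (96, of which 72 were genes under 200 bases). Without genes under 200 bases, and in limma voom, 0 of all genes were called lower in BPA libraries, so TYROBP did not pass there. Without controls 902 and 924 all 13 estimates were again below 0 (median -0.81) and 0 markers passed. The sum was 677 to 954 CPM in controls and 385 to 584 in BPA libraries. It is weighted to MRC1, with 42147 counts over 16 libraries against at most 18529 for any other macrophage marker. Of the 14 in the table, MARCO was at 0 in 5 of 16 libraries and the rest were detected in every one. Lymphocyte markers, 4 of which were tested, had 4 lower estimates. Per 100 macrophage marker counts TLR2 was 1.29, 1.15, 1.02 and 0.614 in controls and 0.729, 0.587, 0.604 and 1.04 in BPA libraries. These ranges overlapped (exact permutation p = 0.2), and the part of macrophage abundance in the TLR2 difference was not tested.

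TLR4, the lipopolysaccharide receptor, passed no test. It was 24.2, 18.6, 26.4 and 24.4 CPM in subcutaneous controls and 21.7, 19.9, 23.2 and 17.5 in subcutaneous BPA libraries. The log2 fold change of -0.18 ± 0.17 (interval -0.55 to 0.18; adjusted p = 0.667) lay well above that of TLR2, though the difference between the receptors was not tested. Per 100 macrophage marker counts TLR4 was 2.87 ± 0.764 in subcutaneous controls and 4.21 ± 0.644 in BPA libraries (SD, n = 4; exact permutation p = 0.0857), with overlapping ranges. In visceral fat TLR4 was 19.4, 24.7, 19 and 18.9 CPM in controls, with 908 highest, and 18, 18.3, 15.9 and 18.9 in BPA libraries (log2 fold change -0.20 ± 0.17; adjusted p = 0.744). All 4 BPA values lay below the controls by a narrow edge (18.85 against 18.90 CPM), and on the scale of the 8 visceral libraries alone the groups overlapped.

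SOCS3, the brake on STAT3 signalling, varied most of the well detected genes. In visceral fat controls stood at 8.74, 9.10, 8.29 and 5.46 CPM and BPA libraries at 16.3, 8.78, 30.8 and 8.75. Only BPA 910 and 977 were above the controls, whereas 918 and 984 lay inside the control range. The log2 fold change was 1.03 ± 0.40 (unadjusted p = 0.0269, adjusted p = 0.658) and 0.50 without BPA 977. BPA 910 and 977 also had the highest summed levels of the 16 immediate early genes, which respond within minutes to stimuli or handling, at 2119 and 1971 CPM against 991 and 1740.4 in BPA 918 and 984 and 1251 to 1749.5 in controls. Their part in the SOCS3 values was not tested. Glucocorticoid response genes summed to 1040.0 to 1917 CPM in visceral BPA libraries and 1113 to 1465 in visceral controls, and their part in the SOCS3 values was not tested either.

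The depots were compared next, first in control animals. SOCS3 was lower in visceral than in subcutaneous fat. It stood at 8.74, 9.10, 8.29 and 5.46 CPM in visceral and 15.6, 19.3, 16.3 and 12.1 in subcutaneous controls. No visceral library reached the lowest subcutaneous one, and the fall was 1.0 ± 0.22 on the log2 scale (2.0-fold lower, 95% interval -1.49 to -0.51; edgeR adjusted p = 0.0162). It was the 1 call among 7 tested genes of the set, where 13.3% of 14456 genes passed (6.16% lower in visceral fat) and 19.8% did not overlap (9.53% lower). The adjusted p stayed between 0.0158 and 0.0426 without any single library, and was 0.0908 without subcutaneous controls 902 and 924, 0.0646 when all 16 libraries were fitted together and 0.0597 in limma voom. Marker sums differed between the same groups: adipocyte markers summed to 20167 to 28814 CPM in visceral and 10328 to 20221 in subcutaneous controls, and mesothelial markers to 51 to 105 and 4.08 to 9.36 CPM. The part of cell makeup in the SOCS3 difference was not tested.

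NFKB1 was also lower in visceral controls without overlap, at 54.3 ± 3.17 against 71.9 ± 7.03 CPM (SD, n = 4), with a log2 difference of -0.40 ± 0.12 that missed the threshold (adjusted p = 0.0540). With the animal number as a block the difference was -0.48 and passed (adjusted p = 0.0312). That fit takes the depot difference only from animals 902, 924 and 928, which have libraries in both depots. In DESeq2, without a block, NFKB1 passed as well (adjusted p = 0.0191). The exons of NFKB1 overlap those of a gene on the opposite strand, LOC114115280, in at most 171 of its 5247 bases. Exon intervals were not merged for this, so a shared base may be counted more than once. None of the other 9 genes overlaps the exons of another. The remaining differences between control depots were -0.47 ± 0.20 for TNFAIP3 (adjusted p = 0.157), -0.42 ± 0.30 for TLR2 (0.364), -0.26 ± 0.19 for NFKBIA (0.389), -0.18 ± 0.17 for TLR4 (0.490) and 0.02 ± 0.14 for RELA (0.938). For these 5 genes the depots overlapped. Of the 7 tested genes, 3 (SOCS3, NFKB1 and TNFAIP3) had an unadjusted edgeR p under 0.05, beside 4271 of 14456 genes.

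Between the depots of BPA animals, 0 of the 7 genes passed the edgeR test, against 9.07% of 13782 genes. An unadjusted p under 0.05 was reached by 0 of the 7, beside 3718 of all genes. DESeq2 and limma voom called 0 as well, beside 2197 and 1971 of all genes. RELA was 106, 97.3, 100.2 and 125 CPM in visceral and 86.5, 93.3, 69 and 91 in subcutaneous BPA libraries, without overlap, as in 18.6% of genes (9.51% in that direction; log2 difference 0.33 ± 0.15; adjusted p = 0.193). NFKBIA had 0.39 ± 0.18 (0.204) and TNFAIP3 -0.30 ± 0.19 (0.338). SOCS3 had 0.42 ± 0.39 (0.534), which turned to -0.10 without visceral BPA 977. NFKB1, TLR2 and TLR4 had -0.08 ± 0.18, 0.18 ± 0.38 and -0.21 ± 0.18. These comparisons share libraries with those of BPA and control, so they are not separate evidence.

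**Figure D3:**
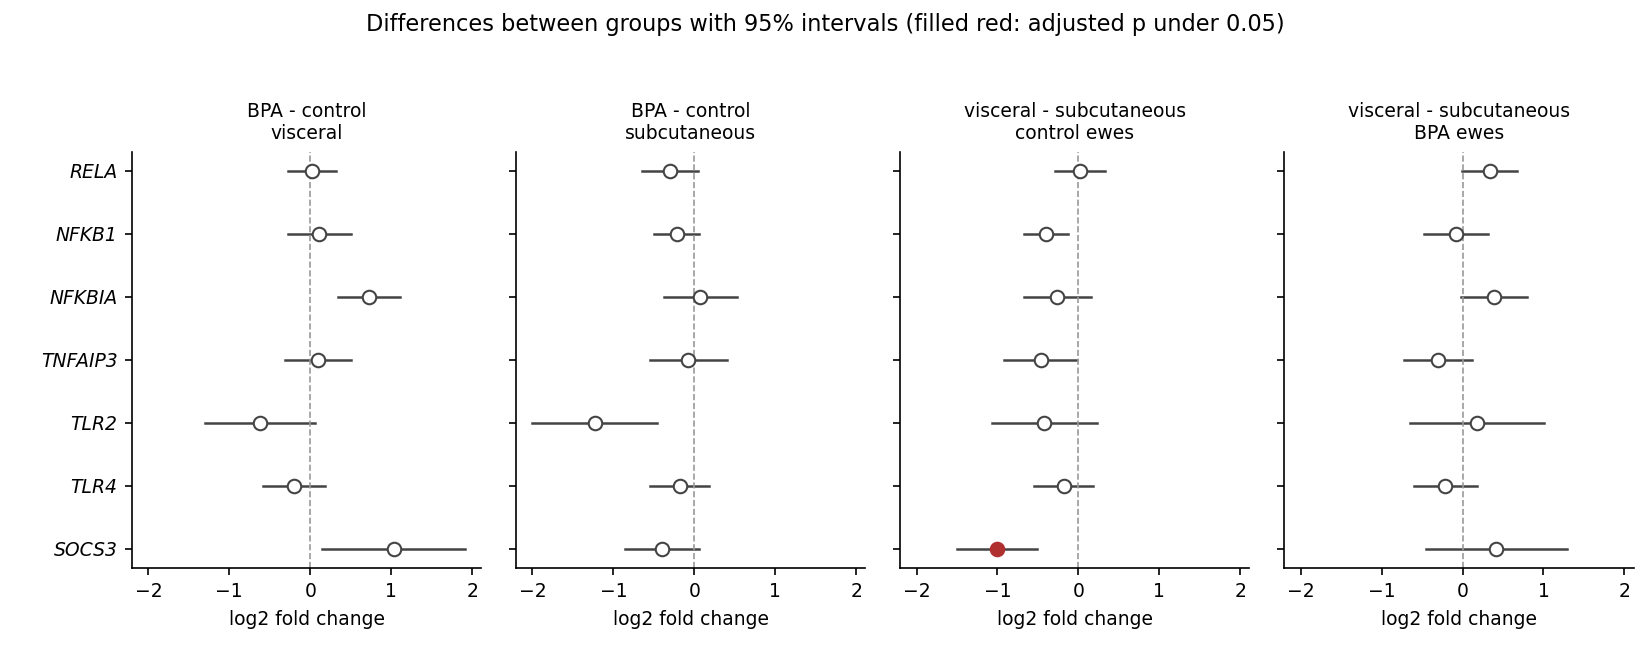
Log2 fold changes of the tested genes (horizontal axes) with 95% intervals, 1 panel per comparison, the filled red point being the gene with an adjusted p under 0.05. Of the set, SOCS3 between control depots is filled (-1.0), the NFKBIA interval in visceral BPA fat runs from 0.35 to 1.11, and the TLR2 interval in subcutaneous BPA fat from -2.01 to -0.46.

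Whether the BPA difference itself varied by depot was tested on all 16 libraries as an interaction. Of the 7 tested genes 0 passed, against 0% of 14793 genes, with 2 of the 7 and 917 of all genes at an unadjusted p under 0.05, and DESeq2 and limma voom called 0 of the 7. SOCS3 had a visceral minus subcutaneous difference of 1.42 ± 0.47 (unadjusted p = 0.00818, adjusted p = 0.692), and 0.91 without visceral BPA 977. NFKBIA had 0.66 ± 0.27 (interval 0.09 to 1.23; unadjusted p = 0.0268, adjusted p = 0.738). The other 5 were 0.61 ± 0.46 for TLR2, 0.33 ± 0.21 for NFKB1, 0.32 ± 0.20 for RELA, 0.17 ± 0.28 for TNFAIP3 and -0.02 ± 0.22 for TLR4, with adjusted p of 0.911 or more. NFKBIA separated by BPA in visceral fat and TLR2 in subcutaneous fat, but a difference between the depots was not shown for either gene.

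A wider list of 92 pathway genes was then read by role, of which 89 were in the table. In visceral fat 78 were tested. Estimates were above 0 in 40 and below in 38, the median was 0.02 against 0.00 over all genes, and 0 passed in edgeR, DESeq2 or limma voom. At an unadjusted p under 0.05 there were 8, beside 1103 of all 14774 genes. Without overlap, 3 of the 78 were higher and 1 lower in BPA libraries, beside 2.36% and 1.71% of all genes. The 5 other IkappaB family genes all had positive estimates (median 0.27), as did the 3 other subunits NFKB2, RELB and REL (median 0.43). This pattern rested on BPA 977: without it 3 of the 5 and 2 of the 3 estimates were above 0, with medians of 0.01 and 0.06. BCL3, a nuclear IkappaB protein, was 12.7, 11.3, 13 and 13.4 CPM in controls and 22.9, 16.8, 25.1 and 14.8 in BPA libraries, all BPA libraries being higher (log2 fold change 0.66 ± 0.21). RELB, the partner of the NFKB2 product p52, was 9.01, 7.11, 15.3 and 8.88 and 13.5, 8.56, 34.8 and 13.3 CPM, where 977 was far above the rest. TNIP2, which binds A20, was 12, 10.5, 16 and 12.5 and 16, 21.1, 43.4 and 19.7 CPM (0.97 ± 0.31, and 0.56 without 977). Library 977 was again the highest. SOCS1, a relative of SOCS3, was 6.42, 6.26, 6.22 and 5.13 and 11.5, 7.53, 9.45 and 7.99 CPM (0.60 ± 0.24), and here all 4 BPA libraries exceeded the controls and 910 was highest. The adaptor TRAF2 had 0.98 ± 0.43 and lymphotoxin beta (LTB) 1.88 ± 0.78, or 0.24 and 0.49 without 977, a library at 138 and 12 CPM against at most 45.6 and 2.05 in the other visceral libraries. TLR1, the partner of TLR2, was 5.71, 4.83, 3.89 and 5.87 CPM in controls and 2.79, 2.62, 1.95 and 3.09 in BPA libraries, all lower (-0.94 ± 0.32). NAMPT, an NAD-synthesis enzyme that fat also secretes, had -0.67 ± 0.22, and the alarmin IL33 -0.49 ± 0.21. RELB aside, these 8 genes had the smallest p of the list, and each had an adjusted p of 0.658.

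In subcutaneous fat 72 of the list were tested, with 25 estimates above 0 and 47 below, a median of -0.13 against -0.01 over all genes, and 0 calls in edgeR or limma voom, 3 in DESeq2 (464 of all 13535 genes) and 13 at an unadjusted p under 0.05 (1926 of all genes). Receptors (2 above 0, 11 below, median -0.36), cytokines (0 and 4, -0.66) and target genes (2 and 7, -0.40) leaned below 0, and kinases (0.09) and IkappaB family genes (-0.06) had medians near it. Without controls 902 and 924 the counts were 30 above and 42 below (median -0.08), receptors had 1 above and 12 below (median -0.30), cytokines 1 and 3 (-0.37) and target genes 3 and 6 (-0.15). The share of counts in genes under 200 bases was higher in all 4 BPA libraries, as given above, and its part in these estimates was not tested. CSF1, the growth factor of macrophages, was 156, 141, 95.9 and 111 CPM in controls and 71.4, 73.2, 73.1 and 84.5 in BPA libraries, all lower (log2 fold change -0.74 ± 0.17, and -0.44 without controls 902 and 924; adjusted p = 0.0811). CD14, the TLR4 co-receptor and itself a macrophage marker, was 35.6, 33.6, 49.3 and 43.7 and 27.7, 17.2, 29.1 and 23.8 CPM, again all lower (-0.73 ± 0.20; 0.139). TLR8, an endosomal RNA sensor, was 7.80, 6.21, 4.24 and 4.51 and 2.68, 0.678, 2.35 and 2.25 CPM (-1.51 ± 0.41; 0.141), also all lower. The receptors IL1R1 and TNFRSF1B had -0.49 ± 0.16 and -0.54 ± 0.18, the cytokine IL18 -1.34 ± 0.49 (-0.86 without controls 902 and 924) and the Toll-like receptor adaptor MYD88 -0.47 ± 0.18, with adjusted p from 0.212 to 0.275. TNIP2 was the 1 of these 8 with a positive estimate (0.58 ± 0.20, 0.237). CSF1, CD14, TLR8, TNFRSF1B and MYD88 were lower without overlap, 5 of the 72 tested pathway genes, where 3.24% of all genes were, and ZC3H12A, named after its values were seen, was the 1 higher without overlap. The macrophage marker sums did not overlap either.

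**Figure D4:**
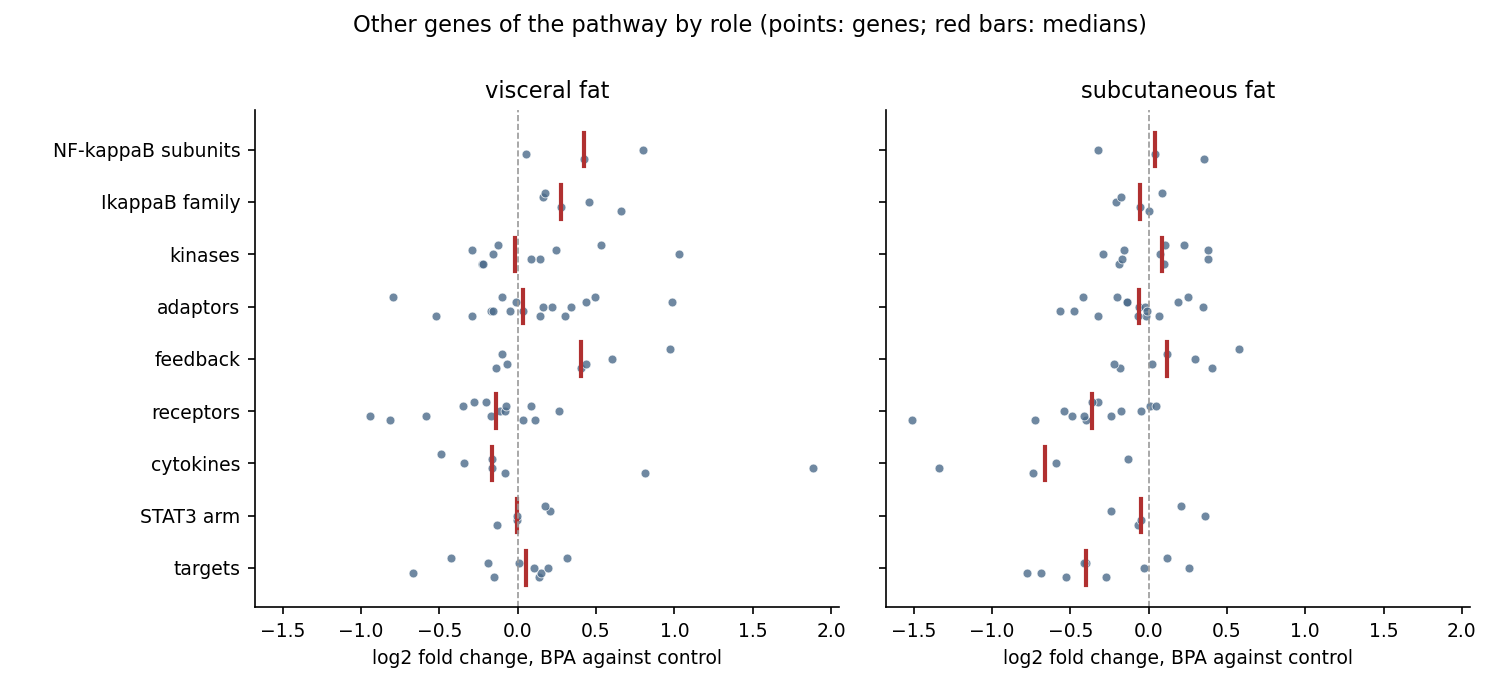
Log2 fold change of BPA against control (horizontal axes) for each tested gene of the wider pathway list (points), by role (vertical axes), in visceral and subcutaneous fat, with red bars for medians. In visceral fat all 5 IkappaB family points lie above 0 (3 of 5 without BPA 977), and in subcutaneous fat 11 of 13 receptor points lie below 0.

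Between control depots 8 of the 78 tested pathway genes passed (10.3%, beside 13.3% of all genes), 2 higher and 6 lower in visceral fat (7.17% and 6.16% of all genes). SELE, the endothelial adhesion molecule E-selectin, was read 1 time in the 4 visceral control libraries together, a pooled 0.0209 (0.000530 to 0.117) CPM, and 62 times in the subcutaneous controls, 2.76 (2.12 to 3.54) CPM (adjusted p = 0.00121). Subcutaneous controls had 3.28, 1.72, 3.92 and 1.23 CPM, so every one of them was above every visceral control. SELE passed the filter on low counts only through these subcutaneous controls, so the direction of its test was fixed in advance. In BPA animals, where SELE did not pass the filter on low counts, it was read 1 time in visceral and 25 times in subcutaneous libraries, while endothelial markers as a group summed to 2731 to 2981 CPM in visceral and 1729 to 2783 in subcutaneous controls. Lower in visceral fat were also the kinase subunit IKBKG, known as NEMO (log2 difference -0.49 ± 0.15; adjusted p = 0.0484), the related kinase IKBKE (-1.03 ± 0.24; 0.0204), TRAF2 (-0.75 ± 0.21; 0.0411), the hyaluronan-binding TNFAIP6 (-1.16 ± 0.31; 0.0341) and NAMPT (-0.51 ± 0.14; 0.0356). SOD2, a mitochondrial superoxide dismutase induced by NF-kappaB, was higher by 0.67 ± 0.18 (0.0350) and TAB3, which activates the kinase TAK1, by 0.57 ± 0.15 (0.0323). The number of calls ranged from 1 without visceral control 928 to 6 without single libraries, beside 1043 to 1755 of all genes. It was 2 without subcutaneous controls 902 and 924, beside 1138 of all genes, and 4 in limma voom, beside 1510. With the animal number as a block it was 13, beside 2631, and in DESeq2 14, beside 2772.

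Between BPA depots 5 of 73 pathway genes passed (6.85%, beside 9.07% of all genes), 2 higher and 3 lower in visceral fat (5.13% and 3.94% of all genes). NAMPT was 41.9, 28.2, 20.1 and 35.4 CPM in visceral and 69.3, 117, 62.3 and 60.7 in subcutaneous libraries, the lowest subcutaneous value being above the highest visceral one, a fall of 1.30 ± 0.27 on the log2 scale (adjusted p = 0.0184). CHUK, the IkappaB kinase alpha, fell by 0.82 ± 0.17 (0.0194) and TLR6, a partner of TLR2, by 0.77 ± 0.21 (0.0438). CD14 was higher by 0.95 ± 0.22 (0.0273) and CSF1 by 0.57 ± 0.15 (0.0415), and the macrophage marker CD68 by 1.21 (0.00492). CCL5, a chemokine, had 1.56 ± 0.44 (0.0511), STAT3 0.50 ± 0.16 (0.0734) and IKBKG -0.63 ± 0.21 (0.0858), short of the threshold. The count was 14 without visceral BPA 977, beside 2206 of all genes, and 0 without subcutaneous BPA 922, beside 369. It was 2 to 4 without any other single library, beside 491 to 818 of all genes. With the animal number as a block, which rests on animals 918 and 977, it was 1, beside 892. DESeq2 gave 8, beside 2197, and limma voom 11, beside 1971.

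In the interaction 54 of 78 pathway estimates were above 0 (visceral minus subcutaneous BPA difference) and 24 below, with a median of 0.24 against 0.02 over all genes. In edgeR, DESeq2 and limma voom 0 passed, with 8 at an unadjusted p under 0.05 in edgeR, beside 917 of all 14793 genes. The median was 0.10 without visceral BPA 977 and 0.07 without subcutaneous controls 902 and 924. CD14 had 0.84 ± 0.28, TNFRSF1A 0.51 ± 0.19, CSF1 0.65 ± 0.27 (0.36 without controls 902 and 924), RELB 1.12 ± 0.50 (0.56 without 977) and STAT3 0.44 ± 0.20. IL1RN, the natural antagonist of IL1B at its receptor, had 2.18 ± 0.81 (1.07 without controls 902 and 924), LTB 2.44 ± 1.08 (1.07 without 977) and NAMPT -0.78 ± 0.32. Their adjusted p were between 0.692 and 0.793, and macrophage markers had 13 of 13 estimates above 0 in the same interaction (median 0.93). IL1RN and LTB did not pass the filter on low counts in the subcutaneous comparison without controls 902 and 924.

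Variation between libraries of 1 group was described last, by Pearson's r of log2 CPM over 16 libraries with the group means removed. NFKBIA and NFKB1 had r = 0.70, NFKBIA and RELA 0.66 and NFKB1 and RELA 0.66. These 3 genes tended to be high in the same libraries of a group, while TNFAIP3 had 0.47 with NFKB1, 0.19 with RELA and 0.02 with NFKBIA. SOCS3 had 0.26 with NFKBIA, and TLR2 and TLR4 had -0.24 with each other. Over all genes tested, the highest r with NFKBIA was that of PEX7, a peroxisomal import receptor (0.93), before TRUB1 (0.87) and SLC35E4 (0.85). For NFKB1 these were UBN1 (0.88), C21H11orf54 (0.85) and SMAD7, an inhibitor of TGF-beta signalling (0.84), and for RELA BAG5 (0.88), ORMDL3 (0.87) and LOC114112166 (0.86). TLR2 was most like AHR, the aryl hydrocarbon receptor (0.92), PPM1H (0.90) and the matrix protein FBLN2 (0.88), and TLR4 like TMEM50A (0.87), MEMO1 (0.84) and KHDRBS1 (0.84). SOCS3 was most like LOC114118888 (0.95), the T-cell kinase gene PRKCQ (0.90) and LOC114113877 (0.89), and TNFAIP3 like MOSPD3 (0.87), ZNF79 (0.79) and UGGT2 (0.78). The points share animals between depots and differ in depth, and these genes were picked as the highest of all, so their r is a description.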

How the data were processed

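Total RNA of whole fat was sequenced from 16 libraries after ribosomal RNA depletion with a low-input kit, per the labels' protocols. Per the submitters' processing notes, FastQC 0.11.5, MultiQC 0.9, STAR 2.6.0c and featureCounts of Subread 1.6.1 were used. The genome build, its annotation and any use of strand were not given in the sources used here, so no position is printed, and reads from both strands of a locus cannot be told apart. The authors deposited 1 count per gene and library for 28524 genes, with gene lengths. The table is called normalized, but 0 values are other than whole numbers, so they were taken as raw counts.

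Genes were filtered with filterByExpr (count of 10, total of 15), TMM-scaled and tested with edgeR 4.0.16 (quasi-likelihood, two-sided, R 4.3.3) on the libraries of each comparison, with Benjamini-Hochberg adjustment over all genes tested and calls under 0.05. The interaction used all 16 libraries. The standard error follows from the log2 fold change and F. CPM are on 1 TMM scale over 16 libraries, apart from the pooled CPM of TNF and SELE, which divide summed counts by summed library totals. TPM carry no TMM factor and sum to the same total in every library. The test was checked on simulated counts. Alternatives were DESeq2 1.42.0 and its size factors, limma 3.58.1 voom, other filters (none, or 50 counts in 4 libraries), a threshold of 0.10, genes under 200 bases left out, libraries left out, and the animal number as a block. That number opens each title and was taken as the animal, which the labels do not state: same-numbered libraries had correlations of deviations of 0.287, 0.400 and 0.332 between control depots and 0.167 and 0.0313 between BPA depots. Between depots the block fit takes the difference only from same-numbered pairs: 902, 924 and 928 in controls, 918 and 977 in BPA animals.

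The genes, lists and comparisons were chosen with earlier results of these data known. Named pathway genes are the 8 smallest p of each comparison, named markers were fixed by symbol, and like genes are the 3 with the highest r. The markers TYROBP, MARCO and MRC1 are exceptions, named after their values were seen. REL, TICAM2, IL1RAP and ADGRE1 were found by gene number in the RefSeq table of ARS-UI_Ramb_v3.0. VCAM1, CCL2 and TNFAIP2 were not matched. List counts without libraries that stand apart were chosen after seeing the data.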

Additional observations from a re-analysis of the deposited data

Results flagged for a closer look

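In 3 of 40 sets of 4 libraries (10 genes in 4 groups) 1 library lay far from the other 3, by a criterion under which chance flags about 1 set in 20. NFKBIA in subcutaneous BPA animal 918 was 57.2 CPM, below 72.8 to 73.7 in the other 3. TLR4 in visceral control 908 was 24.7 CPM, above 18.9 to 19.4 in the other 3. IL1B in subcutaneous BPA animal 977 was 0.225 CPM, which is 1 count where the other 3 libraries had 0.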

How the results depend on the processing

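Calls in the set depended on the setting in 2 comparisons. In subcutaneous BPA against control the count of 0 became 1 in DESeq2 (TLR2). Between control depots the count of 1 became 2 in DESeq2, with 50 counts in 4 libraries, at a threshold of 0.10 and with the animal number as a replicate block (NFKB1 added), and 0 with all 16 libraries fitted together, in limma voom and without subcutaneous controls 902 and 924. The number of calls did not change in the other 39 alternatives run, nor in the 48 that leave out 1 library. The replicate block changed no other call.

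Of the log2 fold changes, 313 kept direction and side of the threshold under these alternatives, 5 passed newly, 3 no longer passed and 11 reversed: RELA in visceral BPA without a filter (-0.0020), TNFAIP3 in subcutaneous BPA without controls 902 and 924 (0.11), RELA between control depots with 50 counts in 4 libraries (-0.0053), with the block (-0.058) and without 902 and 924 (-0.017), TLR2 there without 902 and 924 (0.079), TLR2 between BPA depots with the block (-0.018), and in the interaction TLR4 in limma voom (0.00084), with the block (0.014) and without 902 and 924 (0.10) and TNFAIP3 without 902 and 924 (-0.013). The cause was not tested. With single libraries left out 323 kept both and 21 reversed. In visceral BPA the ranges were -0.012 to 0.24 for NFKB1, -0.029 to 0.19 for TNFAIP3 and -0.068 to 0.068 for RELA. In subcutaneous BPA they were -0.18 to 0.16 for TNFAIP3 and -0.057 to 0.26 for NFKBIA. Between control depots RELA ran from -0.053 to 0.13, and between BPA depots NFKB1 from -0.19 to 0.051, SOCS3 from -0.10 to 0.62 and TLR2 from -0.043 to 0.33. In the interaction TLR4 ran from -0.091 to 0.083 and TNFAIP3 from -0.058 to 0.28.

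Over all genes the count of 96 in subcutaneous fat was 464 in DESeq2 (251 higher, 213 lower, against 82 and 14), 173 without a filter, 54 with 50 counts in 4 libraries, 46 with all 16 libraries, 1 without genes under 200 bases, 1 in limma voom, 1 there with the block, 0 without controls 902 and 924, 32 to 128 without single libraries and 216 at a threshold of 0.10. Between control depots 1928 became 1138 without 902 and 924, 1043 to 1755 without single libraries and 3062 at 0.10. It became 2772 in DESeq2, 2631 with the block, 1720 with 50 counts in 4 libraries, 1499 with all 16 libraries and 1510 in limma voom. Between BPA depots 1250 became 2197 in DESeq2, 2408 with all 16 libraries, 1971 in limma voom, 369 to 2206 without single libraries and 2312 at 0.10. In visceral BPA and the interaction 0 became 6 and 11 in DESeq2. Depth limits TNF, IL6 and IL1B most, and TLR2 was read 10 to 21 times per subcutaneous BPA library.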
